A study of Mus musculus with 8 samples.

Results

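The regions of glycosyltransferase genes were taken from a table of histone H3 lysine 9 acetylation (H3K9ac) in mouse ileal epithelium, as every region whose nearest gene has a name that begins with B3galt, B4galt, B3gnt, Galnt, St3gal, St6gal (St6galnac included), Fut, Mgat or Gcnt followed by a digit. The rule uses names alone and no measured value. It took 54 of 11251 regions, which belong to 39 of the 9757 genes in the table. H3K9ac marks active promoters and enhancers. It was mapped by ChIP-seq, chromatin immunoprecipitation followed by sequencing, in intestinal epithelial cells of C57Bl/6 mice with a wild-type genotype, taken from the end of the ileum. Mice of one group had received butyrate at 150 mM for 7 days, and mice of the other vehicle. Butyrate is a short-chain fatty acid that gut bacteria release and that inhibits histone deacetylases. Each group had 3 libraries, here called S1, S2 and S3 (vehicle) and S4, S5 and S6 (butyrate), and the 2 input libraries were not analysed here. The labels give no age or route of dosing, and nothing in them ties a library to its own mouse. A p-value here therefore sets a difference against the spread of libraries, which may be partly technical.

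Glycosyltransferases of the Golgi build the sugar chains of secreted and membrane proteins from activated sugars. MGAT enzymes add the N-acetylglucosamine branches of N-glycans, GALNT enzymes start mucin-type O-glycans on serine and threonine, and GCNT enzymes such as GCNT3 branch them. B3GNT and B4GALT enzymes lengthen chains, and sialyl- and fucosyltransferases cap them. In the intestine such chains make up much of the mass of mucus and of the glycocalyx of enterocytes, and they serve as ligands and food for bacteria.

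H3K9ac at these genes differed little between the groups, and no region passed the adjusted threshold of the main test, limma on log2(RPKM + 1). RPKM is the number of reads in a region divided by its length in kilobases and by the size of the library. The summed level of the 33 regions that cover the transcription start of their gene was 131, 128 and 131 RPKM in the vehicle libraries and 123, 120 and 122 RPKM in the butyrate libraries, a ratio of 0.94. The same sum over all 7482 regions that cover their gene's start had a ratio of 1.00. That larger sum makes up most of a total that was almost equal in all libraries, so its ratio had little room to differ from 1. How sums of 33 other start regions vary was not tested. Of the 49 member regions that could be tested, 33 had a lower and 16 a higher mean with butyrate. The start regions with the lowest log2 fold changes among those with at least 100 mean reads were Gcnt4, a branching enzyme of O-glycans, B4galt6, a galactosyltransferase of glycolipids, and Mgat5, which adds an N-glycan branch. B3gnt3, which extends O-glycans, was the only 1 of 26 such regions whose butyrate libraries all lay above the vehicle libraries. Among all 27 members with at least 100 mean reads this is 3.7%, against 5.91% of all regions with as many reads. In 5 of the 27 all butyrate libraries lay below (18.5%, against 7.47%). A weak region in an intron of B4galt4 was higher with butyrate in a model of the reads, and this call was lost in most fits that left out 1 library.

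The sequences shown are those of promoters at which the results turn, the strongest (Galnt6), one with lower (Mgat5) and one with higher (B3gnt3) acetylation in butyrate libraries, and the promoter of B4galt4 beside the intronic region of the same gene, together with the upstream region of St6galnac4. Promoters are the 250 bases before the start given by RefSeq on GRCm38, and the last 2 lines are the central 250 bases of a region, from the GRCm38 genome. Each is written 5′ to 3′, promoters on the strand of the gene and both central pieces on the plus strand, with CpG dinucleotides in capitals. The Galnt6 promoter lies at chr15:100729377-100729626 on the minus strand, that of Mgat5 at chr1:127204736-127204985 on the plus strand, that of B3gnt3 at chr8:71701801-71702050 on the minus strand and that of B4galt4 at chr16:38742009-38742258 on the plus strand. The B4galt4 intronic piece lies at chr16:38750043-38750292 and the St6galnac4 upstream piece at chr2:32586582-32586831.
Galnt6 promoter: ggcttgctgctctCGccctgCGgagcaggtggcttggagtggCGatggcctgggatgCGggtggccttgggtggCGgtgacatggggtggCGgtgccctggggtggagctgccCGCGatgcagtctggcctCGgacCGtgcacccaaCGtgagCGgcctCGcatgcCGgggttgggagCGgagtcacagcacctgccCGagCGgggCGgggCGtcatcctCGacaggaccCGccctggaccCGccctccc
Mgat5 promoter: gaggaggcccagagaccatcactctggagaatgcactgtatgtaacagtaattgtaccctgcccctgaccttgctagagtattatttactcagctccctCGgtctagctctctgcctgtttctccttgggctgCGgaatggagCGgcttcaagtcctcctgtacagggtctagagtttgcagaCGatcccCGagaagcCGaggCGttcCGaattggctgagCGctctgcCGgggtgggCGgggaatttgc
B3gnt3 promoter: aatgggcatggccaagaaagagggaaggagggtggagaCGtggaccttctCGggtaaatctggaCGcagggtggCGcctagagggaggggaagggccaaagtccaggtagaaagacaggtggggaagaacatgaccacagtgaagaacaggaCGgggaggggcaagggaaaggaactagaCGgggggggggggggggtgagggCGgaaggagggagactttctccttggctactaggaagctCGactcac
B4galt4 promoter: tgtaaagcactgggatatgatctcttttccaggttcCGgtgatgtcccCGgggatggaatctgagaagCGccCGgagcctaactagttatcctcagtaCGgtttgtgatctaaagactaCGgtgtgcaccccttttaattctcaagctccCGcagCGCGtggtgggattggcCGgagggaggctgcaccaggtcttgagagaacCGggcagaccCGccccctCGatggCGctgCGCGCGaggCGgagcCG
B4galt4 intron: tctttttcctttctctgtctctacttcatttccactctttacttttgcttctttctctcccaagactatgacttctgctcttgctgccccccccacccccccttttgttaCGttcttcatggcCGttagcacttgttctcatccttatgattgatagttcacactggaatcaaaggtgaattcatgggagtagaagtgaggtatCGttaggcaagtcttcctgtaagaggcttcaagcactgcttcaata
St6galnac4 upstream: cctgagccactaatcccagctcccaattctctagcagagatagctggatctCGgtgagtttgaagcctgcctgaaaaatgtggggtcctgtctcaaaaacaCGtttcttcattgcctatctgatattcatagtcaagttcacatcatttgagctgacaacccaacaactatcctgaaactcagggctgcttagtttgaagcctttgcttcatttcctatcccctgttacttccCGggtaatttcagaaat
The promoters held 22 (Galnt6), 11 (Mgat5), 8 (B3gnt3) and 19 (B4galt4) CpG dinucleotides, and each central piece of the weak regions held 3.

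A library had 1255251 to 1828591 reads in regions and 82 to 120 reads in its median region. In the authors' RPKM values the libraries had almost equal totals over the regions. How these values were scaled is not given, so a gain or loss common to all regions may be hidden. Each difference is therefore read as relative to the rest of the regions. The label of epithelial cells was set against marker genes, each by its region nearest the start and within 5000 bp of it. Such a region was found for 12 of 12 epithelial and 9 of 10 ileal enterocyte markers. Within that distance a region was found for 1 of 8 goblet cell markers (Agr2), 1 of 14 leukocyte markers (Ptprc) and 1 of 10 markers of stroma and endothelium (Vim). Summed levels of those were 0.537 to 1.55 RPKM in vehicle and 1.14 to 1.37 in butyrate libraries for goblet cells, 0.672 to 0.930 and 0.558 to 1.35 for leukocytes, and 0.593 to 1.98 and 0.656 to 1.03 for stroma. Epithelial markers summed to 55.3 to 59.9 RPKM in vehicle and 52.5 to 57.5 RPKM in butyrate libraries, with a median log2 fold change of -0.06, and enterocyte markers to 24.8 to 25.8 and 23.2 to 25.9 RPKM, also with a median of -0.06. Paneth, tuft and enteroendocrine markers had no region within that distance, among them Lyz1, Dclk1 and Chga. In a bulk sample, fewer cells of a type and less acetylation per cell cannot be told apart, and the part of cell composition in the results was not tested.

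GENCODE release M21 lists 74 protein-coding genes with names of these families. A region was assigned by name to 39 of them. Of the other 35, B3galt6, a linker enzyme of proteoglycans, has its start in a region named for its neighbour Sdf4, at 4.98 ± 0.50 RPKM (SD, n = 3) in vehicle and 4.75 ± 0.37 in butyrate libraries. St6gal1, which adds sialic acid to N-glycans, has a region within its body named for BC106179, at 1.25 ± 0.10 RPKM in vehicle and 1.85 ± 0.12 in butyrate libraries (limma log2 fold change 0.34, unadjusted p = 0.040, adjusted p = 0.66). The remaining 33 had no region in the table. They include Fut2, which makes the H antigen of gut mucus and epithelium, St6galnac1, which adds sialic acid to mucin O-glycans, and also Fut1, Gcnt1, B3gnt6 and Galnt5. Absence from the table says only that no region was listed, not how much acetylation was there.

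Among the 33 start regions the mean level over the 6 libraries ran from 1.08 to 5.96 RPKM with a median of 3.84. Galnt6, an O-glycan initiator, was at the top with 5.92, 5.54 and 6.71 RPKM in vehicle and 6.15, 5.70 and 5.75 in butyrate libraries, which is the 95.3rd percentile of all regions. The sialyltransferase St3gal6 (5.82 RPKM), Gcnt4 (5.50 RPKM), and B4galt1 (5.08 RPKM), the main galactosyltransferase of N-glycan antennae, came next. At the low end were B4galt7, St3gal4, Gcnt2, B4galt2 and another start of Mgat4a, at 2.39, 2.38, 2.08, 2.02 and 1.08 RPKM. Neighbours in this order were rarely apart: in 31 of the 32 neighbouring pairs the gap was below the larger of the 2 SDs over the 6 libraries, and only the step from B4galt2 to the Mgat4a start exceeded it. RPKM values are per length and can be compared between genes, though they still depend on how wide a region was drawn.

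**Figure D1:**
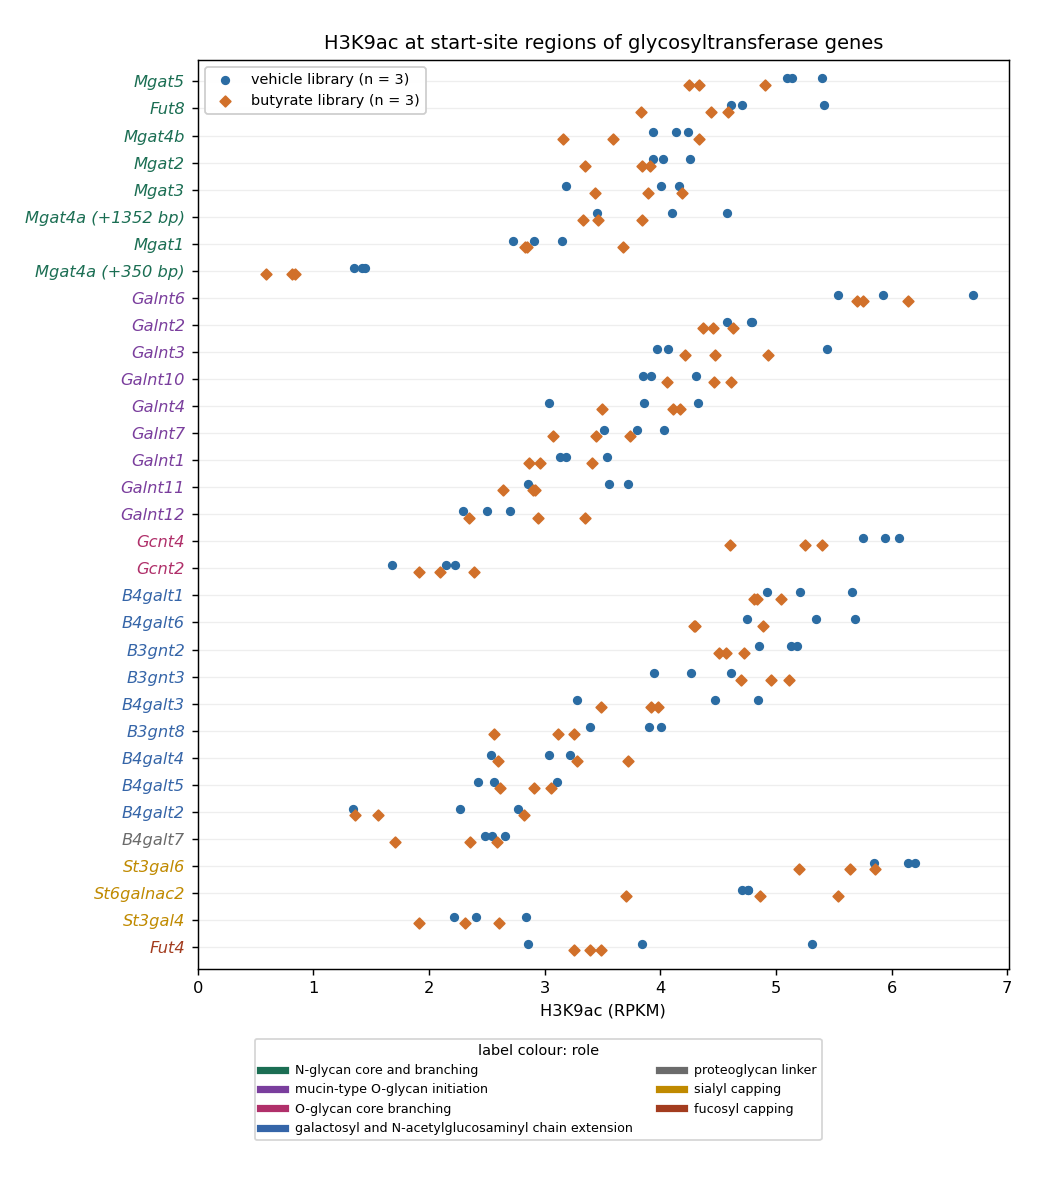
H3K9ac level (RPKM, horizontal axis) of the 33 regions that cover the start of a glycosyltransferase gene, grouped by role; circles are the 3 vehicle libraries and diamonds the 3 butyrate libraries. Galnt6 lies highest at a mean of 5.96 RPKM, and circles and diamonds overlap at most genes, with separate groups at Mgat5, Gcnt4, Fut8 and B3gnt3 among others.

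The comparison asked whether acetylation at these genes differed between butyrate and vehicle mice. Limma called 0 of 49 member regions at a Benjamini-Hochberg adjusted p of 0.05, and 0 of 10529 regions overall (0% called). At an unadjusted p under 0.05 there were 6 of 49 members (12.2%), against 7.27% of all tested regions, 3 of them higher with butyrate (3.35% of all regions) and 3 lower (3.91% of all regions). The members' median log2 fold change was -0.06, with an SD of 0.21, and the median half-width of a member's 95% interval was 0.25. All tested regions had a median of 0.00 and an SD of 0.17. The epithelial and enterocyte markers also had medians of -0.06, but from 1 region per gene, that nearest the start. With 1 region per gene, nearest the start, the members' median was -0.10. A negative log2 fold change was found for 33 of 49 members (67.3%), against 50% of all regions. Over starts, 23 of 33 were negative, with a median of -0.11 where the 7442 tested start regions of all genes had 0.00.

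The libraries of the groups did not overlap in 13 of 49 tested members (26.5%), against 13% of all tested regions. Over all 54 members the count was 15, 27.8% against 14.2% of all regions. It was 6 higher (11.1%, against 6.83%) and 9 lower with butyrate (16.7%, against 7.35%). Among the 27 members with at least 100 mean reads it was 6 (22.2%, against 13.4%): B3gnt3 was higher (3.7%, against 5.91%), and Mgat5, Gcnt4, Fut8, Mgat2 and B3gnt2 were lower (18.5%, against 7.47%). Their log2 fold changes stayed within -0.19 and 0.17. Of the 15 members under 25 mean reads, 8 were of this kind (53.3%), against 18.5% of all regions that weak. The spread between libraries of a group was larger there, with a median coefficient of variation of 31.5% against 7.78% at the members with at least 100 reads.

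**Figure D2:**
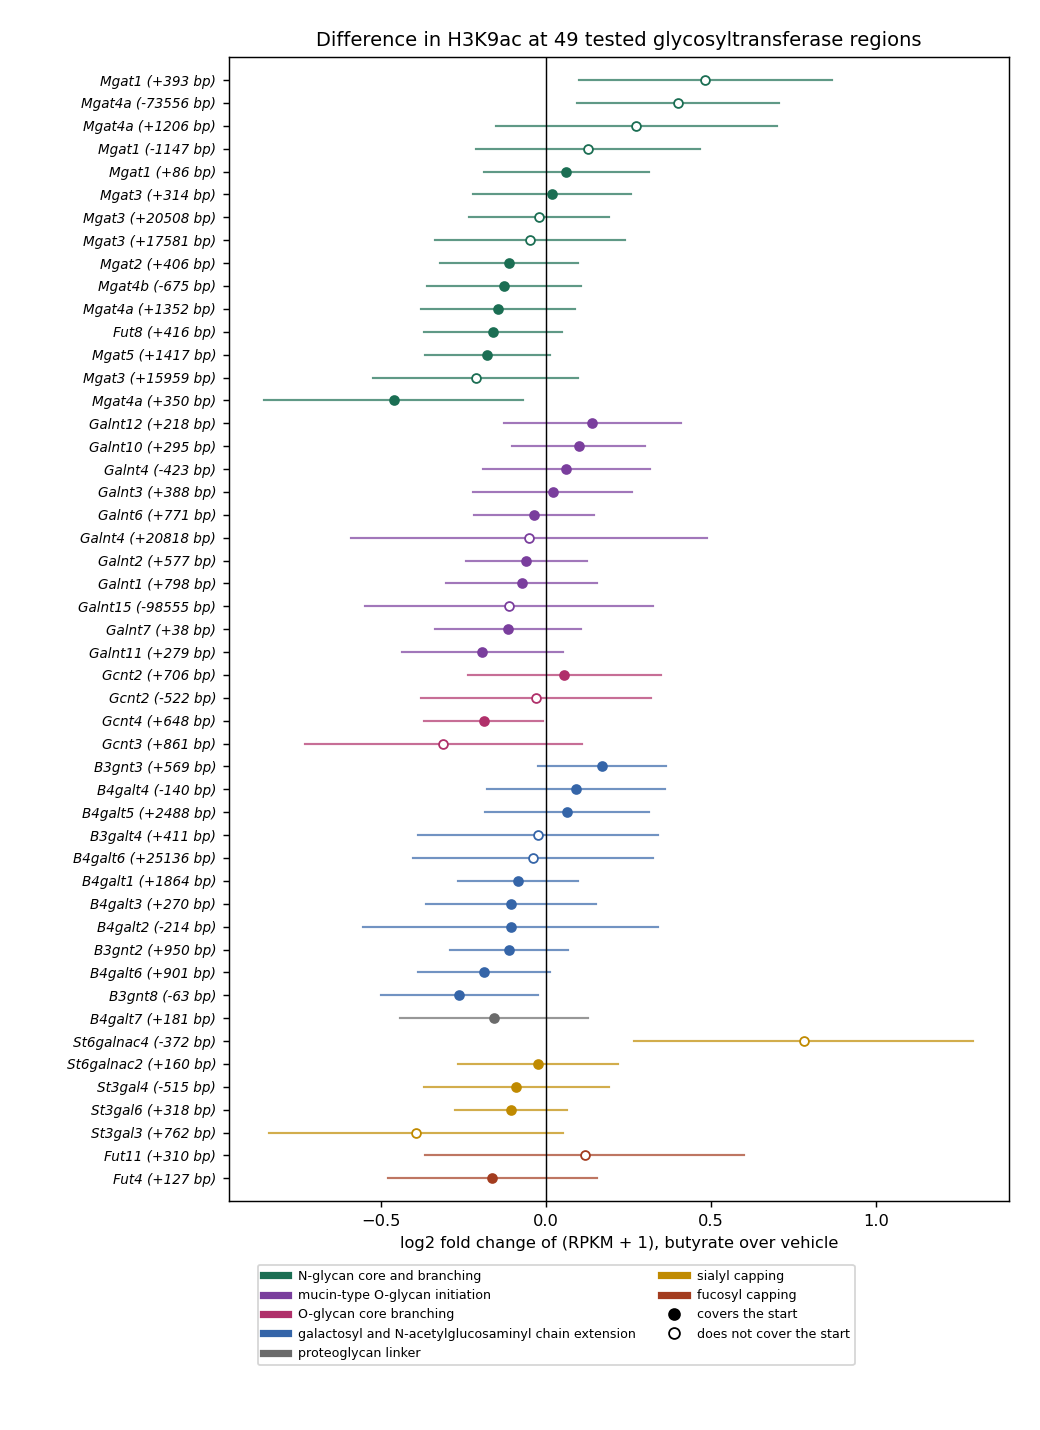
Limma log2 fold change of (RPKM + 1), butyrate over vehicle, with its 95% interval, for the 49 tested member regions, grouped by role; filled points cover the gene's start and open points do not. Most filled points lie left of 0 (23 of 33), and St6galnac4, at 0.78, lies farthest from 0.

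Genes of N-glycan core formation and branching held 16 regions in 7 genes, and their start regions were lower with butyrate in sum. The 8 start regions added up to 30.0, 31.0 and 30.4 RPKM in the vehicle libraries S1 to S3 and to 27.5, 26.8 and 27.9 RPKM in the butyrate libraries S4 to S6. The groups did not overlap, and the ratio of their means was 0.90. Of the 15 tested regions, 6 had a higher and 9 a lower mean, and limma called 0, with 3 at an unadjusted p under 0.05 (7.27% of all regions), of which 1 lies in another gene. Sums without overlap were also seen in other roles. All role sums share the same 6 libraries, and how often sums of other regions lie apart was not tested. Chain extension had 36.2, 34.4 and 36.1 RPKM against 32.6, 34.2 and 34.1 RPKM over 9 start regions (ratio 0.95). Sialyl capping had 13.4, 13.3 and 13.1 RPKM against 13.0, 12.2 and 12.4 RPKM over 3 start regions (ratio 0.94). The role labelled O-glycan core branching had 8.17, 7.90 and 7.75 RPKM against 7.78, 6.70 and 7.16 RPKM over 2 start regions (ratio 0.91), with overlap. Those regions are of Gcnt4 and of Gcnt2, which acts on lactosamine chains.

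Mgat5, which adds the branch that carries long lactosamine chains, had its region at chr1:127204733-127208072, over the start and the first intron. Its level was 5.40, 5.14 and 5.10 RPKM in vehicle and 4.25, 4.33 and 4.91 RPKM in butyrate libraries. Each butyrate library lay below each vehicle library, and the log2 fold change of -0.18 (95% interval -0.37 to 0.01) had an adjusted p of 0.70 by limma. Fut8, which adds the core fucose of N-glycans, lay at chr12:77238012-77240298, with 4.61, 4.71 and 5.42 RPKM in vehicle and 4.44, 3.83 and 4.59 RPKM in butyrate libraries. The groups did not overlap, but the nearest libraries were at 4.61 and 4.59 RPKM (log2 fold change -0.16, adjusted p = 0.73). Mgat2, which acts after Mgat1, had 4.26, 4.03 and 3.94 RPKM against 3.84, 3.91 and 3.35 RPKM, in a region that also covers the start of the ribosomal protein gene Rpl36al. Mgat4b, a branching enzyme, overlapped between groups with 4.10 ± 0.15 and 3.70 ± 0.59 RPKM (SD, n = 3).

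Mgat1, Mgat3 and Mgat4a each had 4 regions, and these did not share a direction. Mgat1 makes the first branch, on which complex N-glycans depend. Its start region held 2.91, 2.73 and 3.15 RPKM in vehicle and 2.85, 2.83 and 3.67 RPKM in butyrate libraries, which overlap. An intronic region centred 393 bp from a start, chr11:49244334-49244834, held 1.55, 0.897 and 1.84 RPKM in vehicle and 2.97, 2.01 and 2.13 RPKM in butyrate libraries, at 20 mean reads. All butyrate libraries were higher there (log2 fold change 0.48, unadjusted p = 0.017, adjusted p = 0.60). The region at 1019 bp lay the other way, with 1.24, 1.23 and 1.16 RPKM against 0.361, 1.01 and 0.977 RPKM, and was below the level needed for the test. Summed over its 4 regions, Mgat1 had 13.8 ± 0.78 CPM, reads scaled to library size only, in vehicle and 15.0 ± 1.9 CPM in butyrate libraries (SD, n = 3).

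Mgat3 adds the bisecting N-acetylglucosamine, which stops further branching. Its start region was at 3.78 ± 0.52 RPKM in vehicle and 3.84 ± 0.38 RPKM in butyrate libraries (SD, n = 3), and the 3 regions 15959 to 20508 bp downstream were at 2.76, 2.23 and 3.33 RPKM in vehicle and 2.21, 2.11 and 3.27 RPKM in butyrate libraries on average. The groups overlapped in all 4 of its regions. Mgat4a, which adds another branch, had its main start region at 4.11, 4.57 and 3.46 RPKM in vehicle and 3.84, 3.34 and 3.46 RPKM in butyrate libraries. A weaker start at chr1:37535678-37536429 held 1.44, 1.42 and 1.35 RPKM in vehicle and 0.840, 0.818 and 0.591 RPKM in butyrate libraries, with 17 mean reads. Every butyrate library was lower at this start (log2 fold change -0.46, unadjusted p = 0.024, adjusted p = 0.64). The adjoining region centred 1206 bp from a start lay the other way, at 0.995, 0.839 and 1.03 RPKM against 2.02, 1.13 and 1.05 RPKM, without overlap (log2 fold change 0.27, adjusted p = 0.77). A region assigned to Mgat4a from 73556 bp upstream, chr1:37614322-37614822, lies in exon 8 of 2010300C02Rik and not in Mgat4a. It held 1.32, 1.57 and 2.03 RPKM in vehicle and 2.25, 2.57 and 2.58 RPKM in butyrate libraries (log2 fold change 0.40, unadjusted p = 0.014, adjusted p = 0.59).

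**Figure D3:**
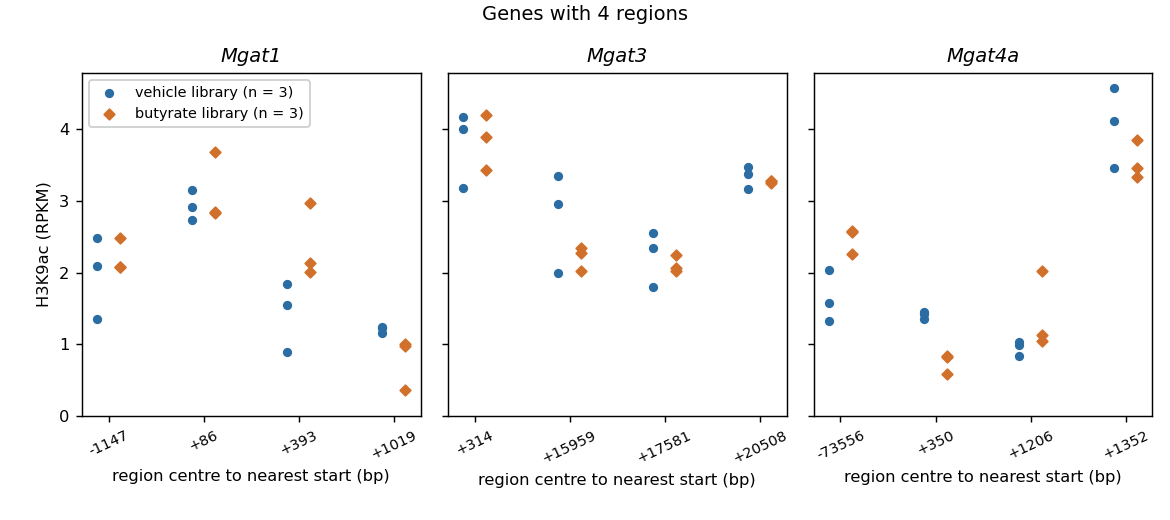
H3K9ac level (RPKM) in the regions of Mgat1, Mgat3 and Mgat4a, each at its distance in bp from region centre to the nearest start (categories, not to scale); circles are the 3 vehicle and diamonds the 3 butyrate libraries. Within Mgat1 and Mgat4a some regions have all diamonds above the circles and others all below, while the groups overlap in every region of Mgat3.

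Genes that start mucin-type O-glycans held 11 regions in 10 genes and were nearly level between groups. The 9 start regions summed to 36.7, 35.7 and 35.6 RPKM in vehicle and 35.8, 35.1 and 35.2 RPKM in butyrate libraries, a ratio of 0.98. None of the 11 had groups that did not overlap, against 13% of all tested regions. None had an unadjusted p under 0.05, against 7.27% of all tested regions, and limma called 0. With only 11 regions, counts of 0 are near these shares. Galnt3, an initiator expressed in many epithelia, held 5.44, 3.97 and 4.07 RPKM against 4.93, 4.48 and 4.21 RPKM (log2 fold change 0.02, 95% interval -0.22 to 0.26). Galnt1, a broadly expressed initiator, held 3.19, 3.54 and 3.14 RPKM against 2.87, 2.96 and 3.41 RPKM. Galnt6 had a log2 fold change of -0.04 with an interval of -0.22 to 0.14. The fold changes of the other start regions ran from -0.19 at Galnt11, in a region shared with the start of E130116L18Rik, to 0.14 at Galnt12. The Galnt4 start region also covers the start of Poc1b, and its region 20818 bp downstream lies in Poc1b. The region assigned to Galnt15 lies 98555 bp upstream, over the lincRNA D830044D21Rik.

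The GCNT genes Gcnt2, Gcnt3 and Gcnt4 held 4 regions, 1 with a higher and 3 with a lower mean. Gcnt4, at chr13:96924372-96926301 over its start and first intron, held 5.95, 5.75 and 6.07 RPKM in vehicle and 5.40, 4.60 and 5.25 RPKM in butyrate libraries. All butyrate libraries lay below, by a log2 fold change of -0.19 (SE 0.08, unadjusted p = 0.042, adjusted p = 0.67). Gcnt3, the mucin-type branching enzyme of gut epithelium, had a single weak region in its first intron, chr9:70036977-70037477, with 11 mean reads. It held 1.01, 1.57 and 1.16 RPKM in vehicle and 0.901, 0.893 and 0.622 RPKM in butyrate libraries, which do not overlap (log2 fold change -0.31, adjusted p = 0.74). Gcnt2, which branches lactosamine chains into the I antigen, overlapped between groups in both of its regions.

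Enzymes that extend chains with galactose and N-acetylglucosamine held 14 regions in 11 genes, of which 11 were tested, 3 with a higher and 8 with a lower mean. B3gnt3, which extends the core of mucin-type O-glycans, lay at chr8:71700286-71702175 with 4.27, 3.95 and 4.61 RPKM in vehicle and 4.70, 5.11 and 4.96 RPKM in butyrate libraries. The groups did not overlap, at a log2 fold change of 0.17 (95% interval -0.03 to 0.36, adjusted p = 0.71). B3gnt8, which takes part in lactosamine chains, lay at chr7:25627183-25627938 with 3.90, 4.01 and 3.40 RPKM against 2.57, 3.25 and 3.12 RPKM, all butyrate libraries below (log2 fold change -0.26, unadjusted p = 0.033, adjusted p = 0.65). B3gnt2, the main enzyme of lactosamine chains, held 4.86, 5.13 and 5.18 RPKM against 4.51, 4.57 and 4.73 RPKM. The groups were apart at B3gnt2 too, by a log2 fold change of -0.11 with an interval of -0.29 to 0.07. B3gnt7, which acts on sulfated chains, had only an intergenic region 5037 bp upstream at 10 mean reads, with 1.13 ± 0.59 RPKM in vehicle and 0.716 ± 0.24 RPKM in butyrate libraries (SD, n = 3), below the level of the test.

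B4galt1 held 5.65, 4.92 and 5.21 RPKM at its start in vehicle and 4.84, 5.05 and 4.81 RPKM in butyrate libraries, which overlap (log2 fold change -0.09). Its intergenic region 17350 bp upstream was weak, at 0.760 ± 0.43 and 1.12 ± 0.38 RPKM (SD, n = 3). B4galt6, one of the lactosylceramide synthases, held 5.68, 4.75 and 5.34 RPKM against 4.30, 4.29 and 4.89 RPKM at its start, where the groups overlapped in 1 library of each (log2 fold change -0.19, adjusted p = 0.70). B4galt5, the other such synthase, differed by 0.06 on the log2 scale, with an interval of -0.19 to 0.31. B4galt2, B4galt3 and the B4galt4 start had overlapping groups as well. The region of B3galt4, a ganglioside enzyme, does not cover the start, and held 3.51 ± 1.1 and 3.37 ± 0.66 RPKM. B4galt7, which builds the linker of proteoglycans, held 2.48, 2.55 and 2.66 RPKM in vehicle and 2.59, 1.71 and 2.36 RPKM in butyrate libraries, so that 1 butyrate library was low and the groups overlapped.

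Sialyl capping was represented by 6 regions in 5 genes. St3gal6, a sialyltransferase of selectin ligands, held 5.85, 6.20 and 6.14 RPKM at its start in vehicle and 5.20, 5.86 and 5.64 RPKM in butyrate libraries, with an overlap of 1 library (log2 fold change -0.11, adjusted p = 0.78). St3gal4, which caps galactose in N-glycans and other chains, held 2.84, 2.40 and 2.22 RPKM against 2.31, 2.61 and 1.92 RPKM in the region named for it. A region named for 4930581F22Rik also covers a start of St3gal4 and is not among the members. St6galnac2, which sialylates O-glycans, had a near equal mean in both groups, 4.74 and 4.70 RPKM, and its butyrate libraries were wider apart (SD 0.029 and 0.93, n = 3). St3gal3, which caps similar chains, had only a weak intronic region, at 1.41 ± 0.43 and 0.824 ± 0.27 RPKM (SD, n = 3), and the groups overlapped. The intronic region of St3gal6, 14228 bp downstream and below the level of the test, held 0.717 ± 0.27 and 0.963 ± 0.45 RPKM (SD, n = 3). Fucosyl capping was represented by Fut4, a maker of Lewis-type fucose, with 3.84, 2.86 and 5.31 RPKM in vehicle and 3.40, 3.49 and 3.25 RPKM in butyrate libraries. Fut11 had 5.04, 2.02 and 4.64 RPKM against 3.70, 3.24 and 5.60 RPKM, in a region that does not reach the Fut11 start and overlaps the antisense transcript 6230400D17Rik over its whole 500 bp. Both overlapped between groups.

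The largest fold changes lay in regions with few reads. The region upstream of St6galnac4, a sialyltransferase of O-glycans and gangliosides, lies at chr2:32586456-32586956, centred 372 bp before the start and not reaching it. It held 0.698, 0.224 and 0.677 RPKM in vehicle and 1.98, 0.893 and 2.13 RPKM in butyrate libraries, from 9, 2 and 7 against 22, 8 and 24 reads. Its log2 fold change of 0.78 (SE 0.24) on the log2(RPKM + 1) scale, which understates changes of weak regions, had an unadjusted p of 0.0059 and an adjusted p of 0.57 by limma. By limma's voom, a model of the recovered reads, it was 1.59 with an adjusted p of 0.21. In the authors' deposited table its log2 fold change is 1.60 with an FDR of 0.151.

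A region in the first intron of B4galt4, a galactosyltransferase of sulfated and lactosamine chains, lay at chr16:38749917-38750417, 7908 bp from the start. It held 5, 0 and 8 reads in vehicle and 16, 9 and 15 reads in butyrate libraries, or 0.388, 0 and 0.774 RPKM against 1.44, 1.00 and 1.33 RPKM. A count of 0 in library S2 allows up to 3 reads, or 0.336 RPKM, for counting error only. All butyrate libraries were higher. Voom on all regions called it, with a log2 fold change of 2.28 (SE 0.57) and an adjusted p of 0.041, but with 1 library at 0 reads the size of this fold depends on the prior count. Leaving out S1, S2, S4, S5 or S6 in turn gave adjusted p-values of 0.10, 0.59, 0.17, 0.057 and 0.14, and the log2 fold change was 1.19 without S2. Limma without a filter gave 0.74 with an adjusted p of 0.51, and the authors' deposited table gives 1.63 with an FDR of 0.187. Of its length, 392 bp overlap Gm15575, a processed pseudogene on the other strand. The B4galt4 start region held 2.93 ± 0.35 RPKM in vehicle and 3.20 ± 0.57 RPKM in butyrate libraries (SD, n = 3), with an adjusted p of 0.89.

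**Figure D4:**
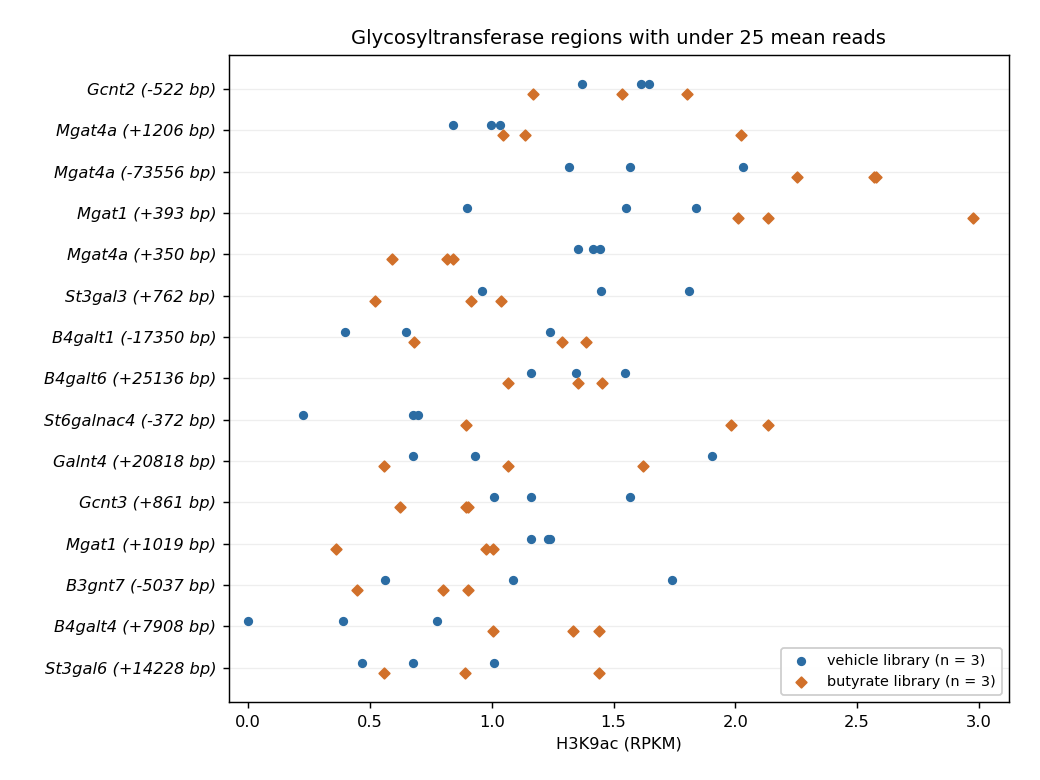
H3K9ac level (RPKM, horizontal axis) of the 15 member regions with under 25 mean reads; circles are the 3 vehicle and diamonds the 3 butyrate libraries. The groups are apart in 8 of the 15, with diamonds above circles at St6galnac4 and at the B4galt4 intron and below them at Gcnt3.

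Models of the reads gave few calls among the members. Fitted to every region, voom called 1 of 54 members (1.85%), the B4galt4 intron, against 0.142% of all regions, and had 6 members at an unadjusted p under 0.05 against 9.49% of all regions. Fitted to those with 25 or more mean reads, it called 0 of 39 members, against 0.0995% of all regions, with 2 at an unadjusted p under 0.05 (8.3% of all regions), Mgat5 and B4galt6. None of the 54 members has a changed status in the authors' deposited table, which marks 28 of 11251 regions (0.249%) at an FDR of 0.1.

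The level of a member region went with its length and its CpG content, which the rule did not use. The CpG ratio, observed over expected from base composition, had a median of 0.66 in the 33 start regions and 0.28 in the 21 others, and 0.65 and 0.33 in all regions of the same kinds. Across the 54 members Spearman's rho with the mean RPKM was 0.67 for the CpG ratio and 0.60 for the length, and across all 11251 regions it was 0.60 and 0.54. These are descriptions across regions, which share libraries and base composition and are not independent.

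**Figure D5:**
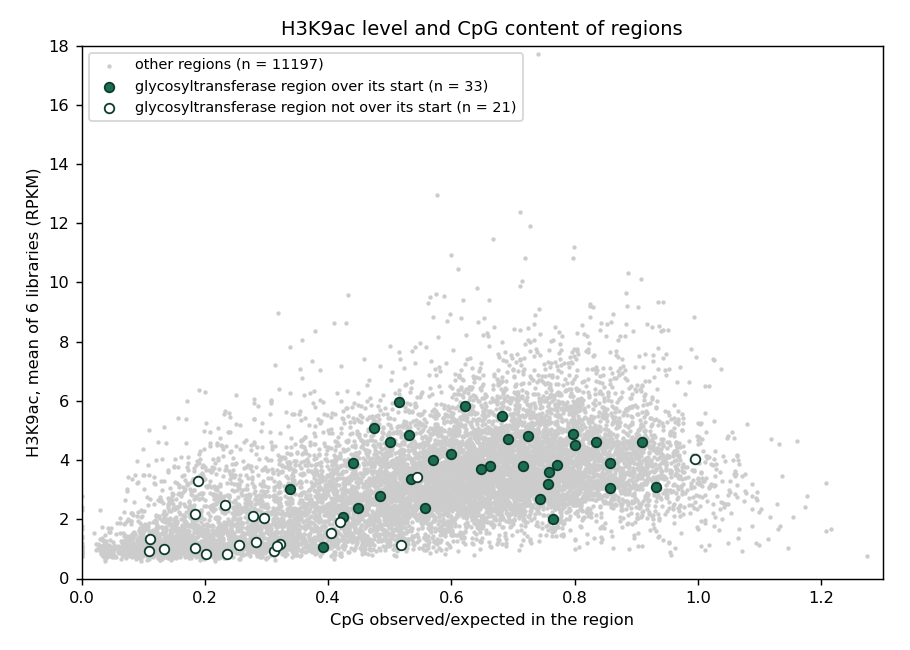
Mean H3K9ac of 6 libraries (RPKM) against the observed over expected CpG ratio of each region; grey points are the other 11197 regions, filled points the 33 members over their start and open points the 21 members that are not. Members over starts have a median ratio of 0.66 and the others 0.28, and both lie within the cloud of all regions.

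RefSeq promoters on GRCm38 were found for 30 of the 39 genes, and 24 of these have a start within a region of their own. In the 250 bases upstream, searched on both strands, the GC box (GGGCGG) was present in 20 of 24 member promoters (83.3%), among them those of Galnt6, Mgat5, B3gnt3 and B4galt4 printed above, against 32.7% of all 32817 promoters and 62.3% of the 8473 with a start in a region. CCAAT was in 5 (20.8%, against 33.8% and 31.8%), including Mgat5 and B4galt4. TGACGTCA, the cyclic AMP response element, was in B4galt3 and Galnt11 (8.33%, against 1.55% and 3.25%). The E-box motif CACGTG, the ETS motif CCGGAAG, the motif of AP-1 factors TGANTCA, the motif of zinc-finger factors of the gut such as Gata4, with letters AGATAA, and the box of core promoters with letters TATAAA were in none of the 24 windows, where 6.02%, 6.9%, 6.75%, 9.99% and 12.4% of all promoters and 8.54%, 16.3%, 4.01%, 5.0% and 5.76% of those with a start in a region hold them. None of these motifs contains another, and a match is a description of letters, not of binding. The member promoters held a median of 19 CpG dinucleotides (5 in Gcnt2 to 34 in Galnt3), against 6 in all promoters and 18 in those with a start in a region.

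Other genes of the pathway were read from 7 lists of 130 genes, of which 84 had a tested region within 5000 bp of the start. Each gene is represented by the region nearest its start. Limma called 0 of the 84, with 2 at an unadjusted p under 0.05 (7.27% of all regions), 35 higher and 49 lower with butyrate and a median log2 fold change of -0.03. Extl3, which starts heparan sulfate chains, held 5.52, 5.29 and 5.42 RPKM in vehicle and 6.57, 7.03 and 6.96 RPKM in butyrate libraries (log2 fold change 0.29, unadjusted p = 0.0017, adjusted p = 0.49). Gmppb, which makes GDP-mannose, held 4.15, 4.09 and 4.58 RPKM against 3.27, 3.57 and 3.63 RPKM (log2 fold change -0.23, unadjusted p = 0.030, adjusted p = 0.64). The groups were apart at both. The regions with the smallest p in the other lists were Dpm2 (0.27), Edem1 (0.14), Slc35b2 (0.21), Rpn1 (-0.18) and Muc3 (-0.11), each a log2 fold change with an adjusted p of 0.70 or more. Nucleotide sugar synthesis had 5 higher and 13 lower of 18, nucleotide sugar transport 7 and 4 of 11, N-glycan trimming 3 and 8 of 11, N-glycan precursor synthesis 7 and 9 of 16, the oligosaccharyltransferase 5 and 3 of 8, and further glycosyltransferases of Golgi and ER 8 and 10 of 18. Of 10 mucin genes only Muc3 and Muc13 had a tested region, and Muc13, a membrane mucin, held 4.23 ± 0.32 and 4.01 ± 0.33 RPKM (SD, n = 3).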

How the data were processed

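H3K9ac was measured in 3 vehicle and 3 butyrate libraries of ileal epithelial cells. Per the labels' protocols, sonicated chromatin was precipitated with an antibody to H3K9ac and sequenced as read pairs. Per the submitters' processing notes the build was mm10 and the tools were STAR, Picard, HOMER and, run by the authors, edgeR, without versions or roles. How regions were called and counted is not given in the sources used here. The deposited table gives, per the file headers, RPKM per library, the authors' mean RPKM and CPM per group, and their p-value, FDR, status, log2 CPM and log2 fold change. Column names give the group of a library and a number found in no sample title.

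The RPKM values were tested on log2(RPKM + 1) with limma 3.58.1 (R 4.3.3, trend and robust), over the 10529 regions with a mean of at least 1 RPKM, with Benjamini-Hochberg adjustment at 0.05; 5 of the 54 members were below this level. Reads were recovered from RPKM (100% of values whole within 0.01 reads) for voom. The main limma fit and both voom fits were also run on simulated reads, with outcomes not given here. The other fits were not. Positions and neighbouring genes are from GRCm38 with GENCODE release M21, and coordinates are those of the deposited table. Counting error limits weak regions: 15 members had under 25 mean reads and 27 at least 100.

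The members, roles and lists were chosen with earlier results of these data known. Regions named by rule were the strongest of each role, those with an unadjusted limma p under 0.05 or a call, those whose groups did not overlap with a deposited log2 fold change over 0.3, genes with 3 or more regions, and a list of gut genes. Others are named for counts or levels, after their values were seen. Alternatives covered pseudocounts of 0.5 and 0.1, the filter, 2 scalings, the variance model, voom, the threshold, the choice of regions and leaving out each library. The inputs were not used.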

Additional observations from a re-analysis of the deposited data

How the results depend on the processing

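The number of members called was 0 in each limma fit of RPKM and in voom at 25 or more mean reads, and 1 in voom on all regions, the B4galt4 intron. The count at an unadjusted p under 0.05, 6 in the main test, was 3 with a mean of at least 2 RPKM and 2 with voom at 25 or more mean reads, where fewer regions were tested, 7 without a filter, and 4 to 6 without 1 library. Regions lower with butyrate numbered 30 to 35 of 49 without 1 library, and the median log2 fold change was -0.08 to -0.05 there and -0.10 to -0.06 in the other alternatives. The 13 tested members whose groups did not overlap were 8 with a mean of at least 2 RPKM, where fewer regions were counted, and 15 to 21 without 1 library (21 without S1, 20 without S6), where fewer libraries have to be apart. For the alternative counts above, except those of voom, the share over all regions is not given here. Those counts therefore describe the members only and cannot be set against the rest of the regions. The ratio of the summed N-glycan start regions was 0.89 to 0.91 without 1 library.

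Of 407 alternative values for 30 named regions, 388 kept their direction and side of the threshold. Only the B4galt4 intron had a call to lose, so for the other named regions this count says little beyond the sign. Regions that changed sign had log2 fold changes of at most 0.13 in size in the main test, and the cause was not tested. Galnt3 was -0.00034 in voom on all regions. Over the fits without 1 library, Galnt3 ran from -0.0454 to 0.141, Mgat1 at -1147 bp from -0.0319 to 0.251, Mgat1 at 86 bp from -0.0332 to 0.111, Mgat3 at 314 bp from -0.0736 to 0.0817, at 17581 bp from -0.147 to 0.0238 and at 20508 bp from -0.0509 to 0.0012, Fut11 from -0.20 to 0.301, and Galnt6 from -0.0900 to 0.0286. The voom call of the B4galt4 intron (log2 fold change 2.28) was lost in limma without a filter, at 0.74, and in fits without a library, chosen after seeing the data, at 1.19 to 2.61. It was kept only without S3. No paired analysis was possible because the library numbers of the columns are in no sample title. With 3 libraries a group, the 95% interval of a member's log2 fold change had a median half-width of 0.25, which limits the differences that can be seen.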
